A study of Mus musculus with 4 samples.

Results

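Meis1, Meis2, Pbx2 and Pbx3, taken by symbol as homeobox genes of the TALE class, were 4 of the 43346 genes counted in single-cell RNA sequencing of the embryonic mouse forebrain. The cells came from wild-type C57BL/6 embryos at E12.5, with both sexes and several embryos pooled in each library. There was 1 droplet library (10x Genomics, 3′ end) from the cortex (CTX) and 1 from each ganglionic eminence (GE), namely the lateral (LGE), the medial (MGE) and the caudal (CGE). With 1 library a region no test between regions was possible, and every 95% interval in this text covers counting error only. Cells were called high-Nes or high-Dcx where Nes, a marker of ventricular zone progenitors, or Dcx, a marker of young migrating neurons, was above 1.5 on the scale ln(1 + UMIs per 10000), that is above 348 UMIs per 1000000 of the cell (CPM). A UMI (unique molecular identifier) stands for 1 captured RNA molecule.

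Homeodomain proteins bind DNA through a helical domain, and those of the TALE class carry an extended loop in it. Meis proteins bind Pbx proteins directly, and the pair acts on DNA with Hox proteins or, in the forebrain, with other homeodomain factors such as Dlx and Pax6. In the ventral forebrain Meis2 is best known from the LGE, the source of striatal projection neurons and of olfactory bulb interneurons, and Meis genes are known targets of retinoic acid.

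The homeobox, which encodes the DNA-binding domain, is shown for the 4 genes because it separates the Meis from the Pbx pair. Meis1 (ENSMUSG00000020160) lies at chr11:18879817-19018985 on the minus strand, Meis2 (ENSMUSG00000027210) at chr2:115863064-116065839 on the minus strand, Pbx2 (ENSMUSG00000034673) at chr17:34591266-34597400 on the plus strand and Pbx3 (ENSMUSG00000038718) at chr2:34171457-34373142 on the minus strand (GRCm38, GENCODE M21). Each stretch below is 189 coding bases of the longest coding transcript that holds it in GENCODE M21, read 5′ to 3′ on the coding strand and joined over exons, and capitals mark the codons of the extended loop.
Meis1: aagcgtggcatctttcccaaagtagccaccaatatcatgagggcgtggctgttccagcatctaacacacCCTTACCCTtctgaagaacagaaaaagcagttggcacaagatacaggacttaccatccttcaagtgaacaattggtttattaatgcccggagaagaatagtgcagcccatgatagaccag
Meis2: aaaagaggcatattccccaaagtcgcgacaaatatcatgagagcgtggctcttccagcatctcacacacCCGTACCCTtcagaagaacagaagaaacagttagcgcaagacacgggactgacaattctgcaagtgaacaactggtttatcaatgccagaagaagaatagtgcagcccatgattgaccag
Pbx2: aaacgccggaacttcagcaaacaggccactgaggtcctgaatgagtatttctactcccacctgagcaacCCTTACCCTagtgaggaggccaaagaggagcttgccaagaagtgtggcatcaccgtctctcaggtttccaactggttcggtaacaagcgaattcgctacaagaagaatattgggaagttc
Pbx3: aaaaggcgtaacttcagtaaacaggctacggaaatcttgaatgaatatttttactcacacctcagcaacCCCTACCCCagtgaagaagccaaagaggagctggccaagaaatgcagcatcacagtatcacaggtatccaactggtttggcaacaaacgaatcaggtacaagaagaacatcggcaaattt
The stretches of Meis1 and Meis2 shared 161 of 189 bases (85.2%), and translated they were identical in all 63 residues. Those of Pbx2 and Pbx3 shared 153 bases (81.0%) and 61 of 63 residues (96.8%). Between a Meis and a Pbx gene 27 of 63 residues (42.9%) matched. The stretch was split over 3 coding exons in both Meis genes and over 2 in both Pbx genes.

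The libraries held 4301 to 6953 barcodes and 31451467 to 49794765 UMIs. There were 882 high-Nes and 782 high-Dcx cells from CTX, 580 and 2048 from LGE, 511 and 2186 from MGE, and 162 and 2273 from CGE. Their median depth was 8402 to 9901 UMIs in high-Nes cells and 6354 to 7952.5 in high-Dcx cells. Region markers fell where the labels put them, with Neurod6 at 501 CPM in CTX and 18.7 CPM or less elsewhere, and Ebf1, Nkx2-1 and Nr2f2 highest in LGE, MGE and CGE, but Htr3a, listed for CGE, was highest in MGE (9.88 CPM). Pairs of libraries shared 2 to 8 barcodes among kept cells. RNA outside its cell of origin was gauged in barcodes with over 50% red blood cell UMIs, as a level per 1000000 of their other UMIs. That level gives the make-up of such RNA and not how much of it a cell held. By library, the barcodes had a median of 1159 to 1814 such UMIs, against 6354 to 9901 UMIs of all kinds in gated cells. A level within the interval of these barcodes was thus not shown to come from outside the cell. Summed microglial marker genes stood at 143 CPM in CGE high-Nes cells and endothelial, mural and microglial sums at 0.419 to 53.5 CPM in the other groups. Leaving out the cells called as such moved none of the 16 ratios of high-Dcx to high-Nes levels beyond its interval.

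Meis2 was high in the high-Nes cells of every region, and in high-Dcx cells, which include cycling cells, it set the regions apart. In high-Nes cells it stood at 1030.1 CPM in CTX (1007 to 1053), 1102 CPM in LGE (1073 to 1132), 585 CPM in MGE (564 to 607) and 584 CPM in CGE (546 to 625). MGE and CGE did not differ beyond counting error (ratio 1.00, 0.928 to 1.08), and the highest library exceeded the lowest by 1.89-fold. In high-Dcx cells it stood at 2671 CPM in LGE (2644 to 2698), 752 CPM in CGE (739 to 766), 419.7 CPM in CTX (404 to 436) and 126 CPM in MGE (120.3 to 132). Each library in that order exceeded the next beyond counting error, and the highest exceeded the lowest by 21.2-fold (20.2 to 22.2).

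The ratio of the Meis2 level in high-Dcx to that in high-Nes cells was 2.42 (2.36 to 2.49) in LGE and 1.29 (1.20 to 1.38) in CGE, but 0.407 (0.390 to 0.426) in CTX and 0.215 (0.203 to 0.228) in MGE. High-Dcx cells thus held more Meis2 than high-Nes cells in the LGE and CGE libraries and less in the CTX and MGE libraries. In red blood cell barcodes Meis2 stood at 269.6 (206 to 346) in CTX, at 328 (218 to 474) in LGE and at 66.1 (21.5 to 154) in MGE, and CGE had 0 UMIs there. The high-Dcx level of MGE lay within the interval of its own red blood cell barcodes, and the other 7 Meis2 levels lay above their own, for CGE above 119 CPM, the upper limit of 0 UMIs in 31001.

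Shares of cells with a UMI were taken after each cell was thinned to 3000 UMIs, which left out 2 to 27 high-Nes and 13 to 51 high-Dcx cells a library. Meis2 was found in 90.5%, 92.9%, 74.0% and 78.1% of high-Nes cells from CTX, LGE, MGE and CGE, and in 65.0%, 88.9%, 13.5% and 40.9% of high-Dcx cells. Without thinning the high-Dcx shares were 82.7%, 90.9%, 20.6% and 50.2%. Red blood cell barcodes, with a median of 1159 to 1814 UMIs outside their own genes, held Meis2 in 12.8% of 156 from CTX, 18.6% of 59 from LGE and 7.55% (2.09% to 18.2%) of 53 from MGE, and 0 of 17 from CGE, which allows a share of up to 17.6%. These barcodes were not thinned. The MGE high-Dcx share as a whole lay within that interval after thinning (13.5%) and above it without (20.6%).

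Counts per cell were far from even. Among LGE high-Dcx cells with Meis2 the median was 20 UMIs and the highest 73, and 84.8% of all LGE high-Dcx cells held 5 or more. In CGE 29.5% held 5 or more, with up to 59 in a cell. In MGE 4.53% did, yet the highest cell had 43.

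**Figure D1:**
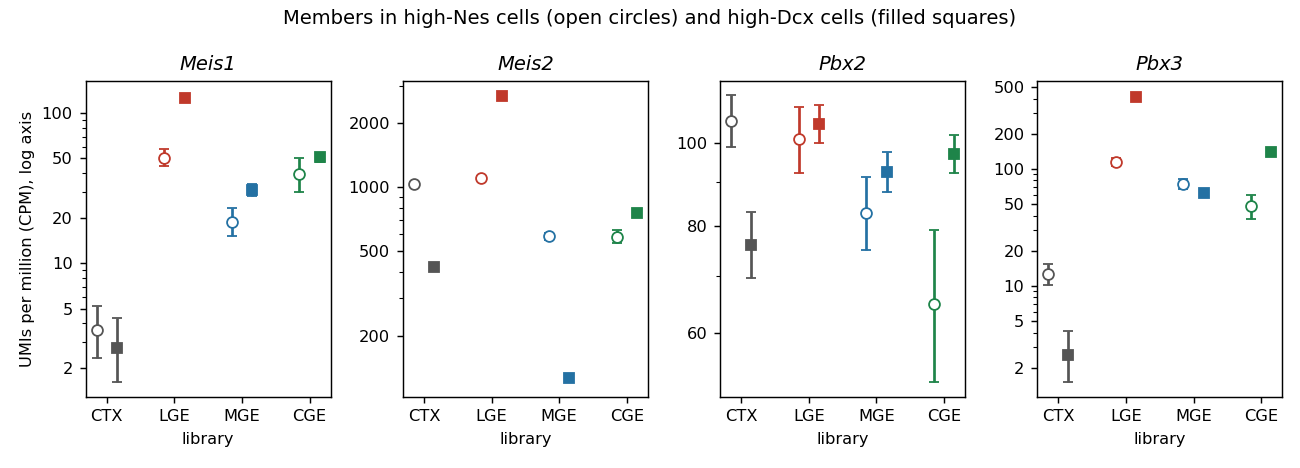
Level of each member in UMIs per 1000000 (log axis, a different range for each gene) by library, in high-Nes cells (open circles) and high-Dcx cells (filled squares), with exact Poisson 95% intervals. In high-Dcx cells LGE has Meis2 at 2671 CPM against 126 CPM for MGE, while Pbx2 stays between 76.1 and 105 CPM.

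Meis1, whose homeodomain residues equal those of Meis2, was highest in LGE. In high-Nes cells it stood at 50.7 CPM in LGE (44.6 to 57.4), 39.2 CPM in CGE (29.8 to 50.7), 19.0 CPM in MGE (15.3 to 23.2) and 3.58 CPM in CTX (2.36 to 5.21). In high-Dcx cells it stood at 126 CPM in LGE (119.8 to 132), 50.9 CPM in CGE (47.5 to 54.6), 31.1 CPM in MGE (28.3 to 34.1) and 2.72 CPM in CTX (1.61 to 4.30). Of neighbours in these orders, LGE and CGE in high-Nes cells were not apart (ratio 1.29, 0.969 to 1.75). The CTX values rested on 27 and 18 UMIs. The intervals of the red blood cell barcodes were 0.112 to 24.6 CPM of CTX, 2.83 to 84.5 CPM of LGE, and, from 0 UMIs, up to 48.7 CPM of MGE and 119 CPM of CGE. The LGE high-Dcx level was above its own interval and the other 7 levels lay within theirs, which does not by itself make them background. The ratio of high-Dcx to high-Nes cells was 2.48 (2.17 to 2.84) in LGE, 1.64 (1.31 to 2.07) in MGE, 1.30 (0.995 to 1.73) in CGE and 0.760 (0.394 to 1.43) in CTX. After thinning, 28.7% of LGE high-Dcx cells held Meis1, against 13.3% in CGE, 8.15% in MGE and 0.910% in CTX. Red blood cell barcodes held it in 1.69% (0.0429% to 9.09%) of 59 from LGE, in 0.641% (0.0162% to 3.52%) of 156 from CTX, and in 0 of 53 from MGE and 0 of 17 from CGE, which allow up to 5.66% and 17.6%. The thinned CGE and CTX shares lay within those limits, which come from barcodes that were not thinned. Without thinning the CTX share (2.17%) still did and the CGE share (24.4%) did not.

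Pbx3, which encodes a binding partner of Meis proteins, ran in the same order as Meis1 in high-Dcx cells, with wider gaps. In high-Dcx cells it stood at 415 CPM in LGE (405 to 426), 139 CPM in CGE (134 to 145), 62.7 CPM in MGE (58.7 to 66.9) and 2.57 CPM in CTX (1.50 to 4.12). In high-Nes cells it stood at 115 CPM in LGE (105 to 124), 74.8 CPM in MGE (67.3 to 82.8), 48.0 CPM in CGE (37.5 to 60.5) and 12.6 CPM in CTX (10.2 to 15.4). All neighbours in both orders were apart, and MGE and CGE changed places between them. The ratio of high-Dcx to high-Nes cells was 3.62 (3.32 to 3.96) in LGE and 2.91 (2.30 to 3.74) in CGE, against 0.839 (0.742 to 0.949) in MGE and 0.204 (0.114 to 0.344) in CTX. The CTX high-Dcx level, from 17 UMIs, was below the interval of the CTX red blood cell barcodes (4.82 to 45.3), and the high-Nes level lay within it. The intervals of the other red blood cell barcodes were 2.83 to 84.5 CPM of LGE, 0.335 to 73.6 CPM of MGE and up to 119 CPM of CGE. The MGE high-Dcx and the CGE high-Nes level lay within them, and the other 4 levels of the GEs above. Pbx3 was found in 1.17%, 52.5%, 10.9% and 22.2% of thinned high-Dcx cells from CTX, LGE, MGE and CGE. The red blood cell barcodes held it in 2.56%, 3.39% and 1.89% of CTX, LGE and MGE and in 0 of 17 of CGE, so the CTX share was no higher than its background. The upper limits were 11.7% for LGE and 10.1% for MGE, just under the MGE share, and 17.6% for CGE.

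Pbx2, which encodes another Pbx partner, varied little. It stood at 106, 101, 82.8 and 64.9 CPM in high-Nes cells of CTX, LGE, MGE and CGE, and at 76.1, 105, 92.6 and 97.2 CPM in high-Dcx cells. The widest gap between libraries was 1.64-fold (1.32 to 2.04) in high-Nes and 1.38-fold (1.25 to 1.53) in high-Dcx cells. Red blood cell barcodes spanned 1.07 to 31.9 CPM of CTX, 2.83 to 84.5 CPM of LGE, 14.4 to 135 CPM of MGE and up to 119 CPM of CGE, so the MGE and CGE levels lay within their own. CTX and LGE were not apart in the former, nor CGE and MGE in the latter. The ratio of high-Dcx to high-Nes cells was 0.717 (0.640 to 0.803) in CTX and 1.50 (1.22 to 1.86) in CGE, while 1.04 (0.942 to 1.16) in LGE and 1.12 (1.000 to 1.25) in MGE were not clear of 1.

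Across the 4 libraries, high-Dcx and high-Nes sums were compared with edgeR's quasi-likelihood test, with the library as a block and Benjamini-Hochberg adjustment over 12352 genes. None of the 4 members passed an adjusted p of 0.05, where 56% of all genes tested did, 28.1% higher and 27.9% lower. By an unadjusted p under 0.05 the count was 1 of 4, against 61.6% of all genes, and by DESeq2 1 of 4, against 55.9%, in both cases Meis1. The log2 fold change in high-Dcx cells was 0.73 ± 0.25 (SE) for Meis1 (adjusted p = 0.0528, edgeR), -0.38 ± 0.62 for Meis2 (adjusted p = 0.627), 0.15 ± 0.17 for Pbx2 (adjusted p = 0.471) and 0.55 ± 0.66 for Pbx3 (adjusted p = 0.505). The ratios by library of Meis2 and Pbx3 went in opposite directions, and their SEs were the widest of the 4. Without CTX, Meis1 rose by 0.93 on the log2 scale (adjusted p = 0.00940, edgeR).

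Zone classes of the 3 GEs followed the members from progenitors to mantle neurons. Cells were put in the ventricular zone class (VZ) by Nes, in the subventricular zone class (SVZ) by Dcx with the cell cycle genes Mki67 and Ccnd2 and without Mapt and Rbfox3, and in the mantle zone class (MZ) by Dcx without Nes, Hes5 and cell cycle genes. LGE, MGE and CGE gave 622, 527 and 175 VZ cells, 384, 213 and 70 SVZ cells and 559, 842 and 1202 MZ cells. Each class was tested against the mean of the other classes over 11677 genes. In VZ 0 of the 4 members were called higher and 2 lower, against 30.1% and 26.6% of genes (56.7% in all). In SVZ 1 was higher and 0 lower, against 15.4% and 10.7% (26.1% in all), and in MZ 1 was higher and 0 lower, against 30.8% and 29.8% (60.6% in all).

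Meis1 peaked in SVZ in every GE. Its VZ, SVZ and MZ levels were 55.0, 149 and 91.6 CPM for LGE, 18.8, 36.5 and 25.0 CPM for MGE and 39.2, 80.5 and 42.8 CPM for CGE. It was higher in SVZ (log2 fold change 1.06 ± 0.12 SE, adjusted p = 0.000204, edgeR) and lower in VZ (log2 fold change -0.90 ± 0.13 SE, adjusted p = 0.000194, edgeR). The LGE levels in SVZ and MZ were above the red blood cell interval of that library, and the other levels in LGE, MGE and CGE lay within theirs. Both calls were lost without the block on libraries (adjusted p = 0.141 and 0.160, edgeR).

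Pbx3 was lower in VZ (log2 fold change -1.16 ± 0.31 SE, adjusted p = 0.00936, edgeR). Its VZ, SVZ and MZ levels were 125, 404 and 430.0 CPM in LGE and 55.3, 215 and 151 CPM in CGE, against 73.8, 65.5 and 80.2 CPM in MGE. The call was lost without LGE (-0.77, adjusted p = 0.0889, edgeR), without CGE (-0.91, adjusted p = 0.0868) and without the block (-1.46, adjusted p = 0.0817). Without MGE, Pbx3 passed as higher in SVZ (1.10, adjusted p = 0.000156, edgeR) and in MZ (0.71, adjusted p = 0.000569).

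Meis2 passed in no class over the 3 GEs. Its VZ, SVZ and MZ levels were 1171, 2344 and 2603 CPM in LGE and 590.4, 734 and 805 CPM in CGE, against 580.3, 98.5 and 163 CPM in MGE, so the libraries went in opposite directions from VZ to SVZ. Without MGE, Meis2 was lower in VZ (-0.82, adjusted p = 0.000720, edgeR) and higher in MZ (0.45, adjusted p = 0.0130). With all 3 GEs its log2 fold changes were 0.29 ± 0.50 (SE) in VZ and -0.03 ± 0.46 in MZ, neither called and the latter close to no change. Pbx2 was higher in MZ (log2 fold change 0.34 ± 0.11 SE, adjusted p = 0.0185, edgeR), where it stood at 106, 107 and 106 CPM. That call was lost without MGE (0.28, adjusted p = 0.0974, edgeR), without CGE (0.28, adjusted p = 0.0781) and without the block (0.32, adjusted p = 0.0594).

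**Figure D2:**
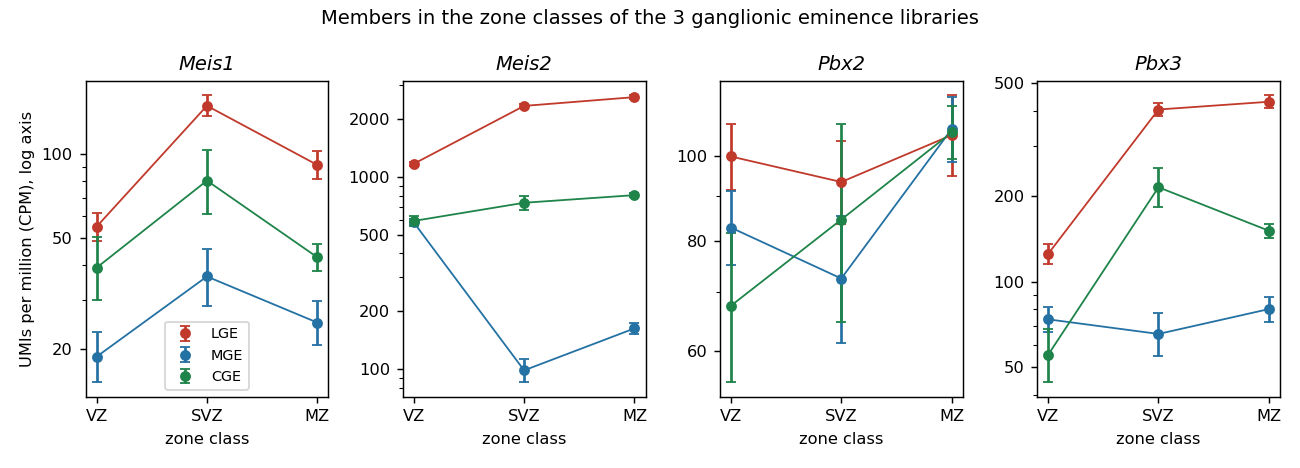
Level of each member in UMIs per 1000000 (log axis, a different range for each gene) in the VZ, SVZ and MZ classes of the 3 GE libraries, with exact Poisson 95% intervals. Meis1 is highest in SVZ in all 3 libraries, and Meis2 goes from 580.3 CPM in VZ to 98.5 CPM in SVZ in MGE while it goes up in LGE and CGE.

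The same split was seen along Dcx itself, with all kept cells put in bins of its level on the log scale of the gates. In LGE, Meis2 stood at 1108 CPM in cells without Dcx, 1649.6 CPM between 0.5 and 1.0, 2257 CPM between 1.0 and 1.5 and 2785 CPM between 2.0 and 2.5. In MGE the same bins held 395, 226, 148 and 148 CPM. CGE went from 474 CPM without Dcx to 899 CPM between 1.0 and 1.5 and 609 CPM above 2.5. Libraries thus parted below the high-Dcx gate already. Pbx3 in LGE went from 123 CPM without Dcx to 464 CPM above 2.5, and Meis1 from 50.4 to 134 CPM.

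High-Dcx cells of the GEs with Meis2 held Pbx3 more often than those without. For each of the 6 pairs of members and each library, the share of thinned cells with the second gene was taken in cells that held the first gene and in cells that did not. The intervals of those shares lay apart in 8 of 24 cases in high-Dcx cells and in 0 of 24 in high-Nes cells, which were fewer. No such count was taken over pairs of other genes, so it does not set the members apart from genes at large. Pbx3 was found in 57.7% (55.4% to 60.0%) of LGE high-Dcx cells with Meis2 and in 10.8% (7.02% to 15.6%) of those without. The shares were 29.1% (23.9% to 34.7%) and 8.02% (6.82% to 9.35%) for MGE, and 36.8% (33.6% to 40.0%) and 12.1% (10.4% to 14.0%) for CGE.

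Meis1 and Meis2 were tied in LGE and CGE. Meis2 was found in 97.7% of LGE high-Dcx cells with Meis1 against 85.3% without, and in 63.6% against 37.4% in CGE. For MGE the intervals overlapped, with 16.7% (11.5% to 23.1%) and 13.3% (11.8% to 14.8%). Meis1 and Pbx3 were tied in the same libraries, with Pbx3 in 66.0% against 47.1% of LGE cells and 39.7% against 19.5% of CGE cells. Of the pairs with Pbx2, intervals lay apart for Meis2 in LGE, where Pbx2 was found in 28.1% of cells with Meis2 and 18.8% without. All 4 members were found in 5.28% of LGE high-Dcx cells, 0.892% in CGE, 0.187% in MGE and 0 of 769 in CTX. None was found in 7.81%, 36.8%, 55.9% and 28.0% in that order.

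**Figure D3:**
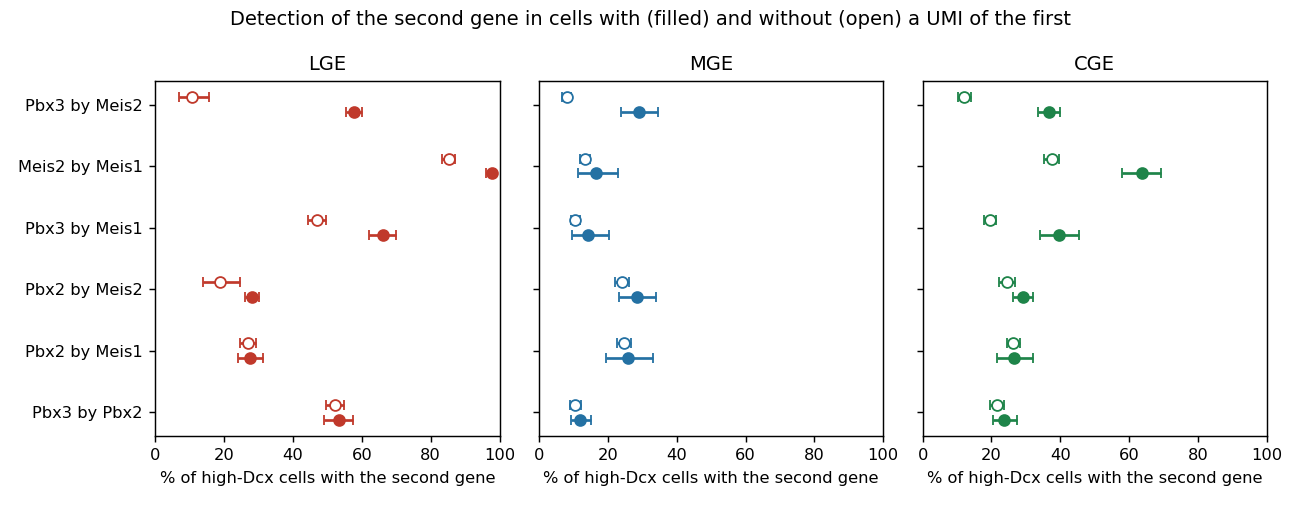
Share of high-Dcx cells, thinned to 3000 UMIs, that hold the second gene of each pair among cells with (filled) and without (open) the first, in LGE, MGE and CGE, with Clopper-Pearson 95% intervals. For Pbx3 by Meis2 the points lie apart in all 3 libraries, at 57.7% and 10.8% in LGE.

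High-Dcx cells were then split by a UMI of a lineage gene, at thinned levels, for 17 lineage genes in the libraries with at least 50 cells on each side (45 splits). The interval of the ratio of cells with to cells without the gene lay above 1 in 29 splits and below 1 in 13 for Meis2. It did so in 20 and 11 for Pbx3, 12 and 6 for Meis1 and 4 and 3 for Pbx2. The same count was not taken over other genes, and these intervals narrow as UMIs increase. Before thinning, LGE high-Dcx cells held 38262 UMIs of Meis2, 5947 of Pbx3, 1799 of Meis1 and 1509 of Pbx2. The order of the members in these counts is thus no measure of how far each depends on lineage. Lhx6, which encodes a factor of MGE-derived interneurons, went with low Meis2 in all 3 GEs. Meis2 stood at 189 against 2896 CPM in LGE (0.0651, 0.0506 to 0.0824), 71.5 against 896 CPM in CGE (0.0798, 0.0636 to 0.0989) and 44.9 against 250.2 CPM in MGE (0.180, 0.151 to 0.212). Pbx3 was lower in Lhx6 cells too, with ratios of 0.127 (0.0785 to 0.195) in LGE, 0.383 (0.295 to 0.490) in CGE and 0.301 (0.240 to 0.375) in MGE.

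Genes of striatal neurons went the other way in the MGE library. There, 76 high-Dcx cells with Zfp503 stood at 1320.2 against 79.0 CPM of Meis2 (16.7-fold, 14.4 to 19.3), and 120 with Isl1 at 953 against 73.8 CPM (12.9-fold, 11.2 to 14.9). Pbx3 went with them, at 434 against 44.7 CPM for Zfp503 and 378 against 39.5 CPM for Isl1. For Meis1 the ratio was 1.96 (1.02 to 3.43) with Zfp503, at 57.0 against 29.1 CPM, and 1.01 (0.498 to 1.86) with Isl1. Meis2 was found in 71.1% of the Zfp503 cells against 11.4% without Zfp503, and in 63.3% of the Isl1 cells against 10.6% without Isl1.

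In CGE high-Dcx cells, Meis2 was higher with Six3, which encodes a forebrain homeodomain factor (2169 against 408 CPM, 5.32-fold, 5.03 to 5.62), and with Zfp503 (2382 against 621 CPM). It was lower with Nr2f2, which marks CGE interneurons (548 against 1128 CPM, 0.486, 0.460 to 0.514), as was Pbx3 (101 against 199 CPM, 0.510, 0.446 to 0.582). Prox1, also listed as a CGE marker, did not share this for Meis2. With Prox1, Meis2 was higher (810 against 730 CPM, 1.11-fold, 1.04 to 1.18) and Pbx3 lower (0.831, 0.707 to 0.972). Meis1 was higher with Six3 in CGE as well (97.9 against 43.2 CPM, 2.26-fold, 1.81 to 2.82).

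Within LGE, Meis1 was higher with dorsal genes and lower with Ebf1 and Isl1, while Meis2 was higher with genes of both kinds other than Sp8. Meis1 was higher in high-Dcx cells with Tshz1 (198 against 109.7 CPM, 1.81-fold, 1.54 to 2.11), Sp8 (1.63-fold, 1.36 to 1.95) and Pax6 (1.49-fold, 1.17 to 1.87), genes of the dorsal LGE. It was lower with Ebf1 (89.2 against 139.9 CPM, 0.638, 0.526 to 0.769) and Isl1 (0.702, 0.599 to 0.821), genes of striatal projection neurons. The Meis1 ratio was not clear of 1 for Zfp503, also of striatal neurons (0.909, 0.782 to 1.05), nor for Foxp1 (1.14, 0.981 to 1.31). Meis2 was higher with Isl1 (1.39-fold, 1.35 to 1.44) and Ebf1 (1.19-fold, 1.15 to 1.23), but also with Tshz1 (1.13-fold, 1.09 to 1.17) and Pax6 (1.17-fold, 1.11 to 1.24), and for Sp8 its ratio was 0.962 (0.919 to 1.01). With Six3 both were higher, Meis1 by 1.55-fold (1.34 to 1.79) and Meis2 by 1.38-fold (1.34 to 1.43). Pbx3 was higher with Tshz1 (636 against 377 CPM, 1.69-fold, 1.55 to 1.84), Isl1 (1.16-fold, 1.07 to 1.25) and Zfp503 (1.18-fold, 1.09 to 1.28) and lower with Ebf1 (0.809, 0.735 to 0.889).

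In cortical high-Dcx cells, Meis2 was higher with Eomes, a gene of intermediate progenitors (646 against 345 CPM, 1.87-fold, 1.66 to 2.12), and with Neurod6 (490.2 against 185 CPM, 2.65-fold, 1.94 to 3.72). For Tbr1, a gene of early cortical neurons, the ratio was 1.05 (0.931 to 1.19).

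**Figure D4:**
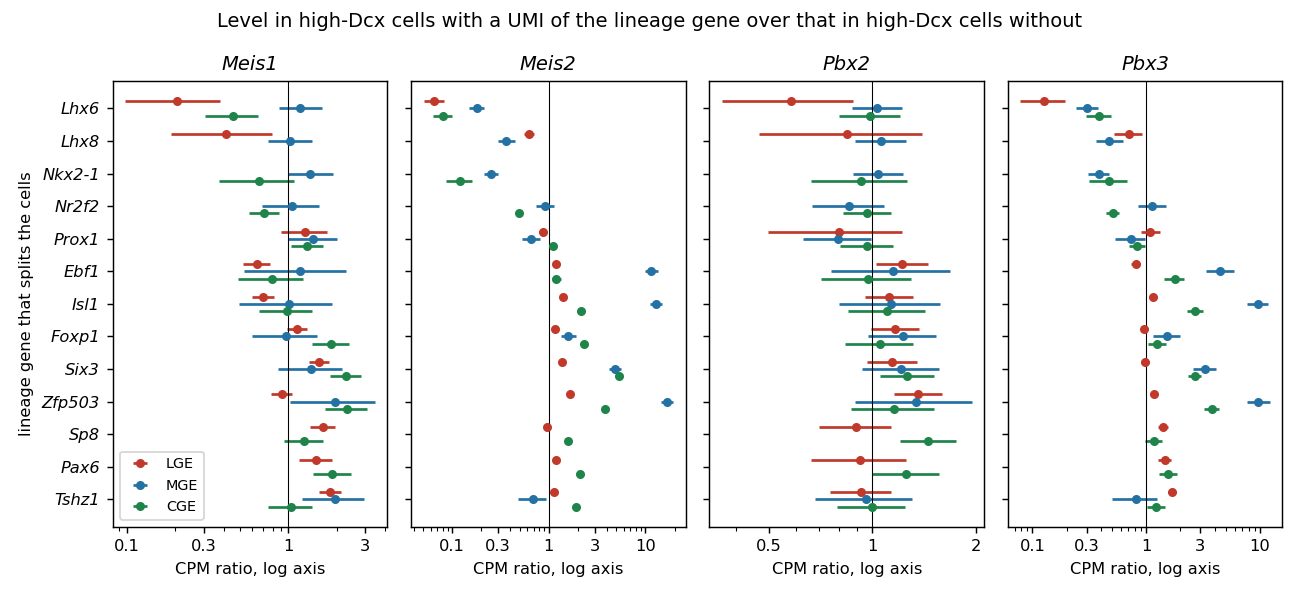
Ratio (log axis, a different range for each gene) of the level of each member in high-Dcx cells with the lineage gene on the vertical axis to that in high-Dcx cells without it, in LGE, MGE and CGE, from thinned cells with exact 95% intervals. Meis2 lies at 0.0651 for Lhx6 in LGE and at 16.7 for Zfp503 in MGE.

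The tie of Meis2 and Pbx3 was looked at again after a split by Lhx6, chosen after the values were seen. Among MGE high-Dcx cells without Lhx6, Pbx3 was found in 41.1% (33.5% to 49.1%) with Meis2 and 10.1% (7.93% to 12.7%) without. The shares were 37.2% and 13.1% for CGE and 57.9% and 15.5% for LGE. Among MGE cells with Lhx6 they were 13.5% (8.06% to 20.7%) and 6.86% (5.49% to 8.45%), with intervals that overlapped. In cells with Lhx6 they lay apart for LGE, at 40.0% (16.3% to 67.7%) of 15 cells with Meis2 and 5.61% (2.09% to 11.8%) without, and overlapped for CGE, at 25.7% (12.49% to 43.3%) of 35 cells and 9.42% (6.61% to 12.9%).

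Of 15 other TALE and Pbx-binding genes, 8 were tested in high-Dcx against high-Nes cells, 1 rose and 4 fell, at a median log2 fold change of -0.37 against 0.01 over all genes, of which 28.1% rose and 27.9% fell. Meis3, another Meis paralog, rose by 1.73 ± 0.13 (SE, adjusted p = 0.000384, edgeR). It went from 19.1 to 54.9 CPM in CTX, 21.0 to 85.5 in LGE, 23.6 to 70.5 in MGE and 20.3 to 53.6 in CGE, the same way in all 4 libraries. Pbxip1, which encodes a Pbx-binding protein, fell by 4.43 ± 0.40 (adjusted p = 0.000570, edgeR), and Tgif2 and Tgif1, which encode repressors, fell by 2.08 ± 0.34 (adjusted p = 0.00375) and by 2.04 ± 0.28 (adjusted p = 0.00206).

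Of 17 forebrain factors known from the same cells, all were tested, 6 rose and 2 fell, at a median of 1.12, against the same 28.1% and 27.9% of all genes. Ebf1 and Zfp503, of striatal neurons, and Dlx5, of GABAergic neurons, rose by 5.13 ± 0.25 (adjusted p = 0.000167, edgeR), 3.62 ± 0.62 (adjusted p = 0.00437) and 3.44 ± 0.27 (adjusted p = 0.000397). Gsx2 and Gsx1, of progenitors, fell by 2.47 ± 0.23 (adjusted p = 0.00117, edgeR) and by 1.45 ± 0.42 (adjusted p = 0.0375). Of 15 retinoic acid genes 9 were tested, 4 rose and 2 fell, at a median of 0.32, again beside 28.1% and 27.9%. Crabp1, Rxrg and Stra6, which encode a binding protein, a receptor and a transporter, rose by 4.05 ± 0.52 (adjusted p = 0.00164, edgeR), 3.75 ± 0.71 (adjusted p = 0.00963) and 3.65 ± 0.41 (adjusted p = 0.00110). In high-Nes cells of every library Rxrg stood at 2.03 CPM or less and Stra6 at 0.808 CPM or less, so their fold changes rest on few UMIs there. Rxra, another receptor gene, fell by 1.56 ± 0.28 (adjusted p = 0.00508, edgeR). Aldh1a3, which encodes a retinoic acid synthesis enzyme and did not enter this fit, stood at 134 CPM in LGE high-Dcx cells and at 3.64 CPM or less in the other 7 groups. Over the zone classes its log2 fold change was -3.83 in VZ and 2.39 in MZ. Those values rest on the LGE library, since Aldh1a3 stood at 0.0687 CPM or less in the high-Nes and high-Dcx cells of MGE and CGE.

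Likeness was the Pearson correlation of log2(CPM + 1) over the 8 high-Nes and high-Dcx sums, among 8474 genes at 20 CPM or more in at least 1 sum. The sums share 4 libraries, so the values are descriptions, and r does not see how far a gene moves. For Meis2 the leading genes were 2700033N17Rik (r = 0.994), G630016G05Rik (0.960) and mt-Nd5 (0.936), the last of which moved between 278 and 334 CPM. For Meis1 they were Six3os1 (0.978), on the strand opposite Six3, Pigk (0.967) and Atp5l (0.966). For Pbx3 they were 2700062C07Rik (0.960), Meis1 (0.951) and Slc18a2 (0.946), and for Pbx2 Taf5 (0.964), Fbxw2 (0.944) and Ubp1 (0.940). Apart from Meis1 with Pbx3, r between members was 0.203 to 0.412.

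The leading pair for Meis2 are its neighbours on the chromosome. In GENCODE M21, 2700033N17Rik is a long noncoding RNA gene at chr2:116066218-116067444 on the minus strand, which points the same way as Meis2 and whose end lies 379 bases upstream of it. G630016G05Rik, at chr2:116067225-116085911 on the plus strand, points away from both and overlaps 2700033N17Rik over 220 bases. The 250 bases before the RefSeq start of G630016G05Rik (GRCm38.p6, chr2:116066975-116067224, plus strand) lie within 2700033N17Rik and are shown because they directly precede the start that points away from Meis2, with CpG dinucleotides in capitals.
G630016G05Rik: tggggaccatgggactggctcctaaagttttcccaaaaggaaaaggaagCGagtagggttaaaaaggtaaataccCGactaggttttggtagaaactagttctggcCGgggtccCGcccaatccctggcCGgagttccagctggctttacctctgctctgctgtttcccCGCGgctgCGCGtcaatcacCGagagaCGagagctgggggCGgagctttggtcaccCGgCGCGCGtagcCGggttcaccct
It holds 17 CpG dinucleotides at 58.4% GC, against medians of 6 and 52.4% over 32851 such windows. The letters TGACAG, a core bound by Meis proteins, and TGATNNAT, a core bound by Pbx with a partner, were searched on both strands in the windows of 300 bases around the RefSeq starts of Meis1, Meis2, Pbx2 and G630016G05Rik, of which those of Meis2 and Pbx2 lie inside the GENCODE spans given above. Neither was found there, while 19.2% and 8.85% of all windows held them.

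Both neighbours were picked by their likeness to Meis2 over the same 8 sums, so their levels there describe that choice and are no separate result. In CTX, LGE, MGE and CGE, 2700033N17Rik stood at 15.3, 14.5, 7.07 and 8.78 CPM in high-Nes cells and at 6.05, 36.5, 1.79 and 10.4 CPM in high-Dcx cells. G630016G05Rik stood at 26.5, 17.6, 9.09 and 10.1 CPM and at 7.41, 35.7, 1.17 and 7.77 CPM in the same order. Both were highest in LGE high-Dcx cells and lowest in MGE high-Dcx cells, as Meis2 was. Unlike Meis2, G630016G05Rik was lower in high-Dcx than in high-Nes cells of CGE, though the intervals overlapped (6.46 to 9.27 and 5.67 to 16.7 CPM). Both neighbours also shared the cells of Meis2 in the GEs. Among LGE high-Dcx cells, 2700033N17Rik was found in 11.1% (9.72% to 12.7%) with Meis2 and 0.448% (0.0114% to 2.47%) without, and G630016G05Rik in 10.97% with Meis2 and in 0 of 223 without. For CGE the shares were 5.89% and 0.529%, then 5.02% and 0.0755%, and for MGE 3.11% and 0.163%, then 2.08% and 0 of 1846. In CTX high-Dcx cells the intervals overlapped, with 2.40% (1.25% to 4.15%) and 0.743% (0.0902% to 2.66%) for 2700033N17Rik. For G630016G05Rik they were 3.40% (1.99% to 5.39%) and 2.23% (0.823% to 4.79%). The annotation behind the counts and its use of strand were not given in the sources used here, so UMIs in the 220 bases shared by both neighbours cannot be told apart. Whether UMIs of 2700033N17Rik come from a gene of its own or from a longer Meis2 transcript cannot be told from these counts either.

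**Figure D5:**
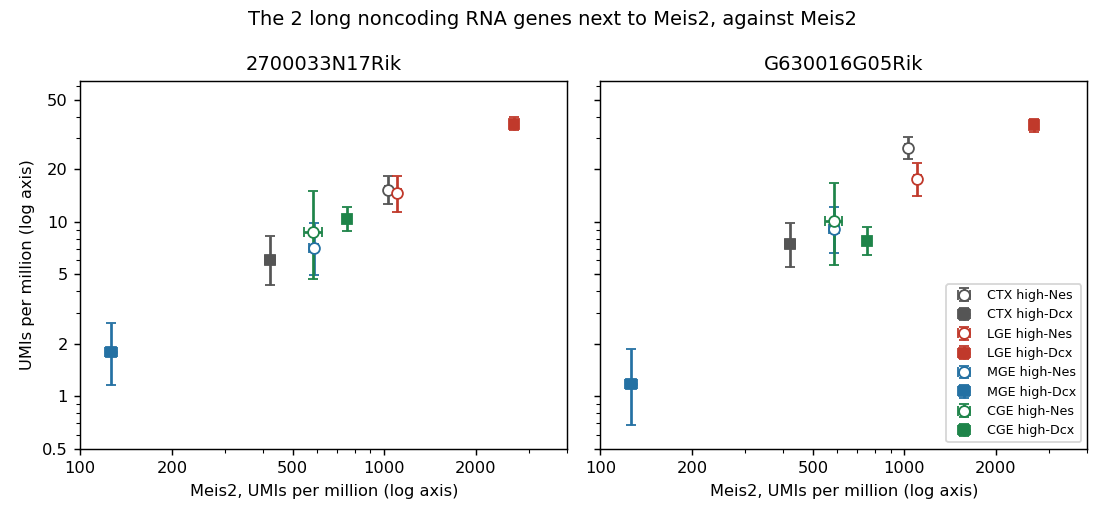
Level of 2700033N17Rik and G630016G05Rik against that of Meis2, in UMIs per 1000000 (log axes), in the high-Nes (open circles) and high-Dcx (filled squares) sums of the 4 libraries, with exact Poisson 95% intervals. The MGE high-Dcx sum is lowest and the LGE high-Dcx sum highest on both axes.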

How the data were processed

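Cells of 4 wild-type libraries were grouped by the region in the labels. The deposited values were raw UMI counts per gene and barcode, and the authors made them on mm10 with Cell Ranger, whose version is 3.0.2 in the matrix headers and 3.0.0 in the submitters' processing notes. The annotation release and the use of strand were not given in the sources used here. The labels describe sorting for live cells and the methods describe wild-type cells as unsorted, and kit versions v2 and v3 were both used with no library named, so shares and depths may reflect either. Gm16141, on the strand opposite Meis1, held 4 to 271 UMIs in a library, and Gpsm3, which overlaps Pbx2 on its strand, 18 to 110.

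Cells had over 1500 and under 4500 genes, under 5% mitochondrial and under 1% Hbb UMIs. Scores from simulated doublets removed 0.8% per 1000 barcodes. Cells past both gates, 16 to 73 a library, were left out. Intervals are exact Poisson for CPM, exact conditional binomial for ratios and Clopper-Pearson for shares. The limit given where 0 red blood cell barcodes held a gene is instead 3 divided by their number. By Clopper-Pearson that limit would be 6.72% for MGE and 19.5% for CGE. Sums were tested with edgeR 4.0.16 (R 4.3.3, TMM, filterByExpr, library as block, adjusted p under 0.05). Same-library sums come from the same tissue, which gives the pairing. Biological replication of a region is absent, so p-values measure the spread of a contrast between regions. On simulated counts (12354 genes) the fit over 4 libraries recovered 68.7% of genes changed 2-fold and 14.9% changed 1.5-fold. DESeq2 1.42.0, other normalization, filters, gates, depths and left-out libraries were the alternatives. Members and lists were chosen with earlier results of these data known. Named genes were the members, up to 3 called genes each way from a TALE, a forebrain and a retinoic acid list, the 3 genes most like each member and 17 lineage genes. Aldh1a3 values, and the genes beside Meis2, were chosen after their values were seen. Some members of the TALE and retinoic acid lists are counted but not reported here by name.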

Additional observations from a re-analysis of the deposited data

Results flagged for a closer look

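For 3 members the change from high-Nes to high-Dcx cells went up in one library and down in another, each with an interval clear of no change. The difference between libraries was not tested, since each region had 1 library. For Meis2 the log2 ratio was 1.28 in LGE and -2.22 in MGE, a difference of 3.49. For Pbx3 it was 1.86 in LGE and -2.29 in CTX, a difference of 4.15, with the CTX high-Dcx level resting on 17 UMIs and below the interval of its red blood cell barcodes. For Pbx2 it was 0.58 in CGE and -0.48 in CTX, a difference of 1.06, but at gate limits of 2.0 the CGE value was 0.32 (-0.10 to 0.78), no longer clear of no change. For Meis1 no library went down clear of no change.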

How the results depend on the processing

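Meis1 in high-Dcx against high-Nes cells passed an adjusted p of 0.05 by DESeq2 (log2 fold change 0.66), with no filter on low counts (0.79) and after thinning (0.98). It also passed at gate limits of 1.0 (0.79) and 2.0 (0.87), with doublets kept (0.75), with no upper gene limit (0.74) and with cells past both gates kept (0.64). It spanned 0.40 to 0.93 when 1 library was left out, and then passed only without CTX. Under the alternatives in which it did not pass, its adjusted p reached 0.423 (edgeR). Without the block on libraries, Meis1 lost its calls in VZ (-0.96) and SVZ (1.14), Pbx3 in VZ (-1.46) and Pbx2 in MZ (0.32), and the block changed no other call of a member. With no filter, Meis2 passed in VZ (0.31) and SVZ (-0.28) and Pbx3 in SVZ (0.66) and MZ (0.47), and after thinning Pbx2 passed in VZ (-0.38). The cause was not tested. With 1 library left out, Meis2 spanned -0.82 to 0.98 in VZ and -0.28 to 0.45 in MZ, with -0.82 and 0.45 without MGE. With all 3 GEs these values were 0.29 in VZ and -0.03 in MZ, neither of them called. Pbx3 spanned -1.81 to -0.77 in VZ, 0.41 to 1.10 in SVZ and 0.23 to 0.71 in MZ, and Pbx2 spanned 0.28 to 0.47 in MZ. Over all genes, 1796 were higher and 1251 lower in SVZ, against 1069 and 576 after thinning and 1059 to 1474 and 434 to 987 with 1 library left out.

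No called ratio by library changed sign under the alternatives run. At gate limits of 2.0 the log2 ratios of Pbx2 in CGE (0.32, -0.10 to 0.78) and of Pbx3 in MGE (-0.18, -0.43 to 0.09) were no longer clear of 0. Those of Meis1 in CGE and of Pbx2 in MGE became clear of 0 under several alternatives, and that of Pbx2 in LGE after thinning (0.28, 0.02 to 0.55). Of 128 recomputed ratios 15 moved beyond the main interval, 6 of them at a gate limit of 2.0, and 31 of 32 shares moved without thinning. Red blood cell barcodes held 31001 to 226271 UMIs outside their own genes, so background was bounded loosely, most of all in CGE, which also had the fewest high-Nes cells (162).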
